A study of Saccharomyces cerevisiae with 12 samples.

Results

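The haploid laboratory yeast CEN.PK113-7D, a strain of mating type a used for physiological work, was compared between 15 °C and 30 °C. The arrays were chosen by title, 3 at each temperature, and make up 6 of the 12 arrays of the series. At both temperatures the cells grew anaerobically under nitrogen limitation in steady-state chemostats at a dilution rate of 0.05 per h, in minimal medium supplied with anaerobic growth factors. Temperature was thus the only difference the labels name between the groups, and each group holds 3 replicate cultures. The other 6 arrays hold the wine yeast EC1118 at the same 2 temperatures; they entered the estimate of the spread and a test of strain differences given last. CEN.PK113-7D is 1 strain, so these values cannot be taken for laboratory yeast in general.

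In a chemostat the growth rate is set by the feed and not by the temperature, so a comparison at equal dilution rate separates the effect of temperature from that of slower growth. Yeast growing in the cold is known for raised transcripts of ribosome assembly, while the transcription factors Msn2 and Msn4 drive a general stress programme that is low in fast, well fed cells. Without oxygen, yeast cannot make sterols or unsaturated fatty acids and takes them up from the medium, and mannoproteins of the anaerobic wall replace those of the aerobic wall.

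RNA was hybridised to a 1-colour Affymetrix yeast array that reports 1 intensity for each of 5900 probe sets. Values are given below as intensities scaled to a common array median of 349.4, in the order of replicates 1, 2 and 3, and folds are differences of mean log2 values. A gene was called higher or lower where limma's moderated test, fitted over all 12 arrays, gave an adjusted p (Benjamini-Hochberg over 5900 probe sets) below 0.05. The deposited values end at a floor of 10, and a fold against a value at that floor is given as a lower bound. Intensities of different probe sets are not comparable, so each gene is set only against itself.

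The deposited array medians lay between 329 and 341 at 15 °C and between 356 and 370 at 30 °C. Between 1.90% and 2.95% of the probe sets of an array were at the floor. Arrays of 1 temperature correlated at r = 0.975 to 0.993 over the probe sets and arrays of different temperatures at 0.923 to 0.938. Replicate 3 at 15 °C stood apart from its partners, with 147 probe sets more than 2-fold from their mean log2 value, against 21 to 75 for each other array. The median SD over the probe sets was 0.13 on the log2 scale at 15 °C, 0.0781 without that array, and 0.110 at 30 °C. Values without that array are given for some of the results that it moved, not for all of them.

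The temperature moved many transcripts by a little. Of the 5900 probe sets 3315, or 56.2%, were called, 1700 higher and 1615 lower at 15 °C, and 1840 of these changed by less than 1.5-fold. A change of at least 2-fold was found for 245 probe sets higher and 251 lower, and one of at least 4-fold for 27 higher and 46 lower. The 2 temperatures did not overlap for 3710 probe sets (62.9%). Counted as genes, 1583 of 5449 (29.1%) were higher and 1542 (28.3%) lower, and the counts of gene lists below are to be read against these shares. The median size of the log2 change over all genes was 0.34 and its median with sign 0.01. Without the centring of each array the median with sign over all probe sets was -0.10. The split of probe sets then became 1276 higher and 2080 lower (176 and 337 at 2-fold or more), and quantile normalization gave 1738 and 1599.

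The genes of mating identity were read first, because they check the strain label and because replicate 3 stood apart in them. In a cells the genes for the alpha mating pheromone are silent and those for the a pheromone and the receptor Ste2 are active. The a-cell genes were well above the floor on all arrays. MFA1, a gene for the a pheromone, read 3149, 3658 and 4666 at 15 °C and 5151, 5082 and 5042 at 30 °C (1.35-fold lower, adjusted p = 0.0566 in limma), and passed as lower without the centring or without replicate 3 at 15 °C. BAR1, the protease that degrades alpha factor, and STE6, the exporter of a factor, fell 1.68-fold and 1.73-fold. Of 8 measured a-specific genes 4 were lower and 1 higher, with 2 lower without replicate 1 or 2 of either temperature and 6 lower without replicate 3 at 15 °C.

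The transcripts of alpha factor itself were the ones that departed from this. MF(ALPHA)2, one of the alpha factor genes, read 168, 271 and 989.9 at 15 °C and 19.8, 13.9 and 18.3 at 30 °C. All arrays at 15 °C lay far above all those at 30 °C, and replicate 3 was the highest. Its rise of 20.7-fold (log2 change 4.37 ± 0.49 SE, adjusted p = 3.7e-05 in limma) was the largest of any gene, and was 12.4-fold without replicate 3. MF(ALPHA)1, the main alpha factor gene, read 534, 824 and 2420.0 against 141, 132 and 220.0, a 6.40-fold rise (adjusted p = 0.00145 in limma) that became 4.16-fold without replicate 3.

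Other alpha-specific and silent mating genes moved less or not at all past the threshold. STE3, the receptor for a factor in alpha cells, read 89.9, 113 and 132 at 15 °C and 86, 70.6 and 66.9 at 30 °C and rose 1.49-fold. SAG1, the alpha-cell agglutinin, read 319.5, 488 and 1412 against 339.5, 327 and 342 and missed the threshold (adjusted p = 0.0897 in limma), though it passed without replicate 1 at 15 °C. HMLALPHA1, the alpha-specific activator stored at a silent locus, read 10.6, 10.9 and 10.2 against 15.6, 14.7 and 16.2, at or near the floor throughout and called lower at 15 °C. Among the silencing genes SIR1 fell 1.68-fold, SIR4 was also called lower (log2 change -0.53), and SIR2 was not called. Whether cells of the other mating type contributed to the alpha factor signal was not tested.

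The genes that pheromone induces in a cells were read next, since replicate 3 at 15 °C differed most there. PRM3, needed for nuclear fusion in mating, read 128, 296 and 1055 at 15 °C and 63.6, 63.1 and 70 at 30 °C, and rose 5.22-fold, or 2.97-fold without replicate 3. FIG1, a membrane protein of mating, read 196, 429 and 1552 against 95.1, 74.5 and 104, and rose 5.61-fold, or 3.21-fold without it. ASG7, an a-specific regulator of pheromone signalling, read 212, 429 and 1094 against 198, 149 and 140.1, and rose 2.89-fold, or 1.88-fold without it, with no call in a fit of the 6 arrays alone. In all 3 genes replicate 3 was the highest array and replicate 1 the lowest of those at 15 °C.

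FUS1, a gene of cell fusion and a usual reporter of pheromone signalling, showed how far the result depends on that array. It read 276, 344 and 774 at 15 °C and 616, 639 and 644 at 30 °C, so replicates 1 and 2 lay below all arrays at 30 °C and replicate 3 above them. It was not called over all arrays (adjusted p = 0.104 in limma), and was 2.05-fold lower without replicate 3 (adjusted p = 0.000132). AGA1, the anchor of the a-agglutinin, read 639, 769.5 and 1762 against 1153, 980.5 and 1031, the same order of arrays, and was called lower only without replicate 3. Of 16 measured genes that pheromone induces, 5 were higher and 2 lower. Without replicate 3 at 15 °C these were 4 and 6, without replicate 1 at 15 °C 9 were higher, and without replicate 1 or 3 at 30 °C 3 were higher. The list's majority therefore turned with 1 array, and it also turned with the scaling of the arrays. The retrotransposon Ty3, whose transcription pheromone also induces, read 265, 346 and 1697 against 398, 378 and 449 on the probe set named YGR109W-B, again with replicate 3 alone above the rest.

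**Figure D1:**
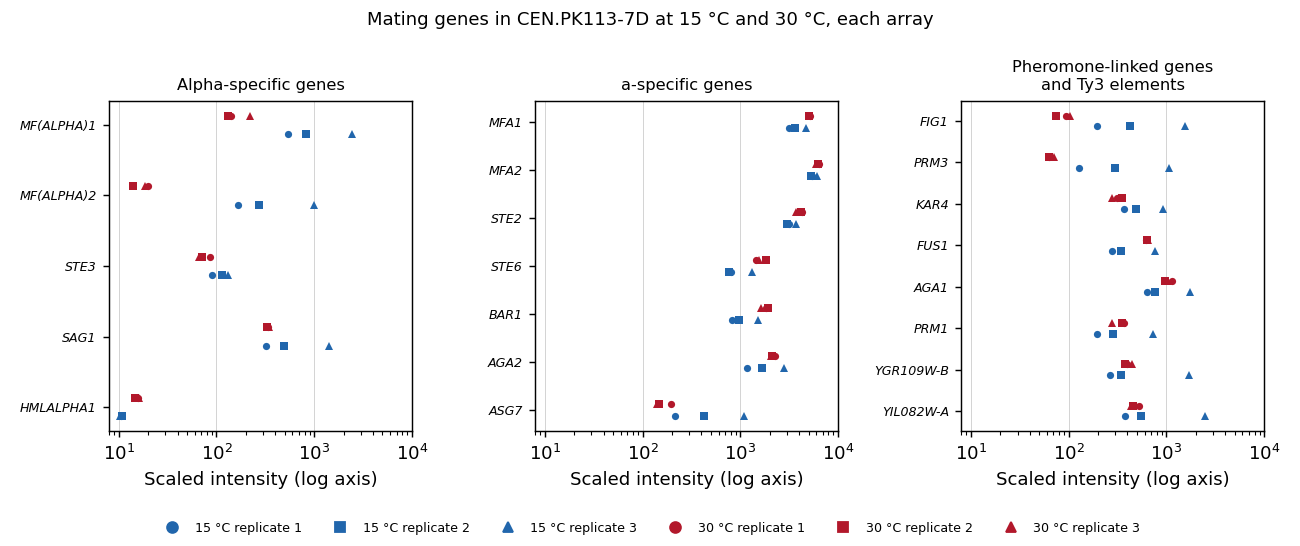
Scaled intensity on a log axis for genes of mating identity and of the pheromone response on the 3 arrays at 15 °C and the 3 at 30 °C, 1 point per array, with replicate 3 at 15 °C marked. MF(ALPHA)2 and MF(ALPHA)1 are higher on all 15 °C arrays, while FUS1 lies below the 30 °C arrays in replicates 1 and 2 and above them in replicate 3.

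Markers of the other stated conditions were compared as well. ANB1, the anaerobic form of translation factor eIF5A, read 1653 ± 428 at 15 °C and 2269 ± 595 at 30 °C (mean ± SD, n = 3), and DAN1, an anaerobic mannoprotein, 4091 ± 833 and 3995 ± 539.8. Neither these nor HEM13 and TIR1, also induced without oxygen, were called, although ANB1 and TIR1 passed as lower without the centring, ANB1 without replicate 3 at 30 °C and TIR1 without replicate 1 at 15 °C. COX5B, the anaerobic subunit of cytochrome oxidase, did fall, reading 323, 363 and 419 against 951, 864 and 845 (2.42-fold lower), while its aerobic partner COX5A at 921 ± 249 and 809 ± 164 was not called. HAP1, the oxygen-responsive regulator, fell 2.46-fold. Over the whole list of 18 hypoxic and anaerobic genes 7 were lower and 0 higher. Of 12 anaerobic wall mannoproteins 3 were lower and 1 higher, with 5 lower without replicate 1 at 15 °C and 1 lower without replicate 2 at 15 °C or replicate 1 or 2 at 30 °C. Among these DAN4 read 212, 157 and 183 against 1727, 1479 and 744, a call lost without any of those last 3 arrays, and PAU5, on a shared probe set, fell 2.68-fold. CYC1, an aerobic cytochrome gene, varied between replicates, at 93.6, 228 and 542 against 30, 90.9 and 135, with overlap and no call (adjusted p = 0.158 in limma). Among the nitrogen-limitation markers, GAP1, the general amino acid permease, read 3071 ± 434 against 4573 ± 290.2 and fell 1.50-fold. DAL5, an allantoate permease, fell 1.89-fold. The markers DUR3 and PUT1, given below, fell far more, with log2 changes of -3.11 and -3.70, and did not stay high. Actin, ACT1, read 4946 ± 197 and 4989 ± 116.

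The 15 genes with the largest rise and the 15 with the largest fall were taken from called genes whose temperatures did not overlap. Their higher group also had no array at the floor. In these genes a lack of overlap therefore follows from the choice. Of the 15 that rose, the pair of alpha factor genes and FIG1 have been described. EFM6, a methyltransferase acting on elongation factor eEF1A, read 890.1, 916 and 454 at 15 °C and 40.7, 52.2 and 47 at 30 °C, 15.5-fold higher (log2 change 3.95 ± 0.29 SE). PDR12, the plasma membrane pump for weak acids, read 2381, 2469 and 2658 against 147, 198 and 307, 12.1-fold higher. ARE2, which esterifies sterols, read 589.7, 643 and 624 against 51.9, 58.7 and 199, and its 7.31-fold rise was larger without replicate 3 at 30 °C, at 3.49 on the log2 scale against 2.87. For all 3 the temperatures were far apart on every array.

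NSR1, a nucleolar protein known to be induced in the cold, read 1638, 1727 and 1329 against 310.4, 263 and 307 and rose 5.32-fold. IMD2, coding for an IMP dehydrogenase of guanine nucleotide synthesis, read 2246, 2044 and 2103 against 344, 320.2 and 499 and rose 5.60-fold, on a probe set shared with near copies. COS12, a member of a family encoded near chromosome ends, read 106, 107 and 109 against 15.1, 11.9 and 13.3, an 8.05-fold rise (adjusted p = 6.57e-09 in limma) with almost no spread at 15 °C. All 3 genes were separated from their 30 °C values on every array, as the choice required.

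Genes of meiosis and sporulation were the rest of this group, from levels near the floor. HOP1, a component of the meiotic chromosome axis, read 84, 92.3 and 72.2 against 12.8, 12.2 and 9.45, a rise of at least 7.22-fold. SPO11, which makes the meiotic double-strand breaks, read 67.1, 80.8 and 88.8 against 9.94, 14.6 and 16.9 and rose 5.82-fold. HFM1, a meiotic helicase, rose 5.81-fold and SPR2, a putative spore wall gene, 5.95-fold. The uncharacterised YGL262W (at least 7.71-fold) and YCR101C (at least 6.21-fold) complete the 15. In the list of 31 meiosis and sporulation genes, however, 7 were higher and 7 lower: DMC1, the meiotic recombinase, rose 1.81-fold and SPS4 2.80-fold, and SPO22, needed for meiotic crossovers, fell at least 3.02-fold.

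The largest falls were in transporters and in genes of stress and stationary phase. FUI1, the uridine permease, read 22.9, 27 and 21.7 at 15 °C and 419.9, 370.4 and 369 at 30 °C, 16.2-fold lower (log2 change -4.02 ± 0.12 SE, adjusted p = 9.63e-09 in limma). DIP5, the permease for acidic amino acids, read 166, 105 and 157 against 2763, 1908 and 1660.0, 14.7-fold lower. PTR2, the peptide transporter, read 172, 191 and 434 against 1933, 1852 and 2273, 8.28-fold lower, and DUR3, the urea transporter, 94.1, 115 and 101 against 832, 928 and 906, 8.61-fold lower. No array of the cold cultures came near the warm ones in these 4 transporters, for which a lack of overlap was a condition of the choice.

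HXT5, a hexose transporter of slow growth, read 30, 24 and 28.1 against 352, 426 and 411 and fell 14.5-fold. HXT2, a high-affinity hexose transporter, read 119, 162 and 74.8 against 1344, 970.1 and 1188 and fell 10.2-fold. RSB1, which moves long-chain bases across the plasma membrane, read 16.9, 14.8 and 18.5 against 155, 229 and 325 and fell 13.5-fold. None of the cold values of these genes reached the lowest warm value, as the choice required, and RSB1 varied most among the warm arrays.

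PUT1, the proline oxidase, read 122, 147 and 282 against 1853, 2364 and 2509, 13-fold lower and 16.6-fold without replicate 3 at 15 °C. HSP30, a stress-induced membrane protein, read 46.2, 56.6 and 68.3 against 536, 742 and 893 (12.6-fold lower), and the small heat shock protein HSP26 278, 377 and 533 against 3124, 3239 and 3498 (8.58-fold lower). SPI1, a wall protein of stationary phase, read 195, 272 and 257 against 1905, 2049 and 2073, 8.40-fold lower. ISF1, a gene linked to respiratory growth, read 47, 51.2 and 143 against 799, 798 and 798, 11.4-fold lower with replicate 3 the highest cold array. The rest were SPG4 (10.1-fold), TMA10 (9.94-fold) and YNL277W-A (at least 8.55-fold).

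**Figure D2:**
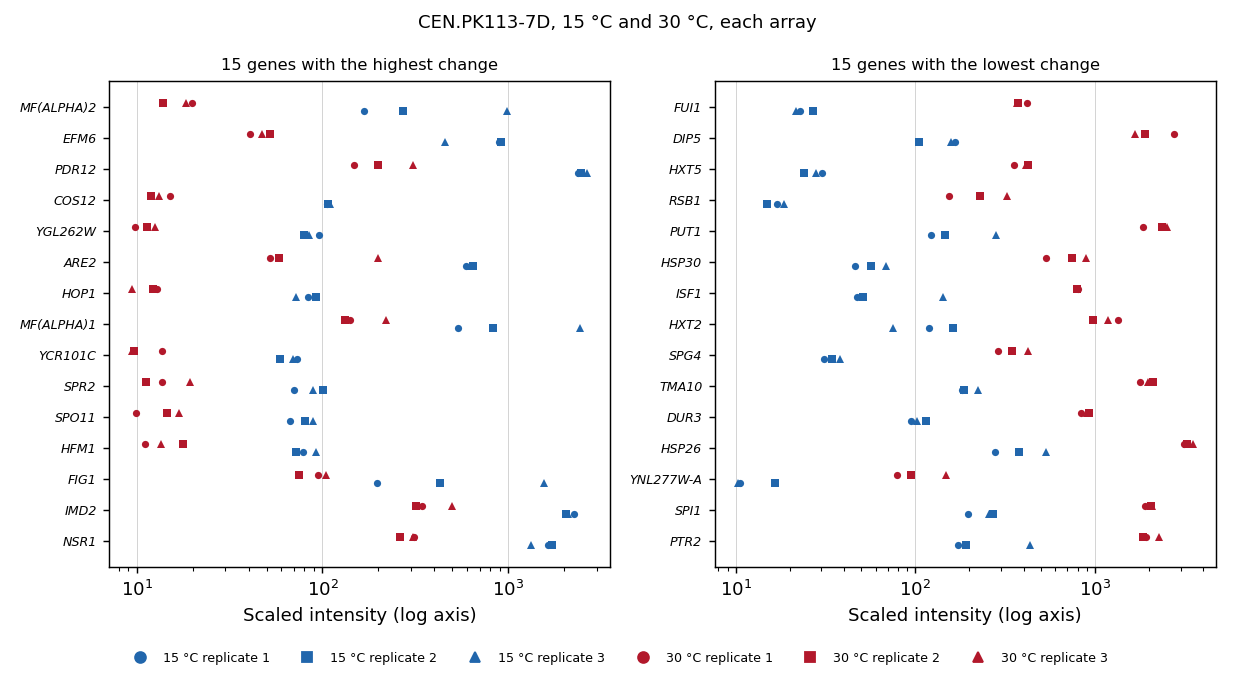
Scaled intensity (log axis) of the CEN.PK113-7D genes with the 15 largest rises and the 15 largest falls at 15 °C. There is 1 point for each of the 3 arrays at 15 °C and the 3 at 30 °C. The floor of 10 of the deposited values is not drawn. The points of the temperatures do not overlap for any of the 30 genes, which was a condition of their choice. MF(ALPHA)2, MF(ALPHA)1 and FIG1 have the widest spread at 15 °C.

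Some genes were at the floor on all arrays of 1 temperature and on none of the other. AZR1, a drug pump, read 24.4, 30.9 and 97.6 at 15 °C and was at the floor at 30 °C, at least 4.35-fold higher, or 2.85-fold without replicate 3, and not called when a pseudocount of 50 was added. The subtelomeric YFR057W read 17.8, 18.9 and 13.8 and was at the floor at 30 °C, a call lost with quantile normalization. In the other direction YHR022C read 19.4, 28 and 30.9 at 30 °C and was at the floor at 15 °C, at least 2.44-fold lower. All of these levels are low on the array, where a small signal decides the call.

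Gene lists of pathways and complexes were then counted. The lists with the largest share of higher genes were ribosome assembly, RNA polymerases I and III and the modification of tRNA and rRNA. Those with the largest share of lower genes were trehalose and glycogen, daughter cell separation, allantoin and urea use, and the Msn2 and Msn4 targets. The share of all genes called, 29.1% higher and 28.3% lower, is the level a list has to be read against.

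**Figure D3:**
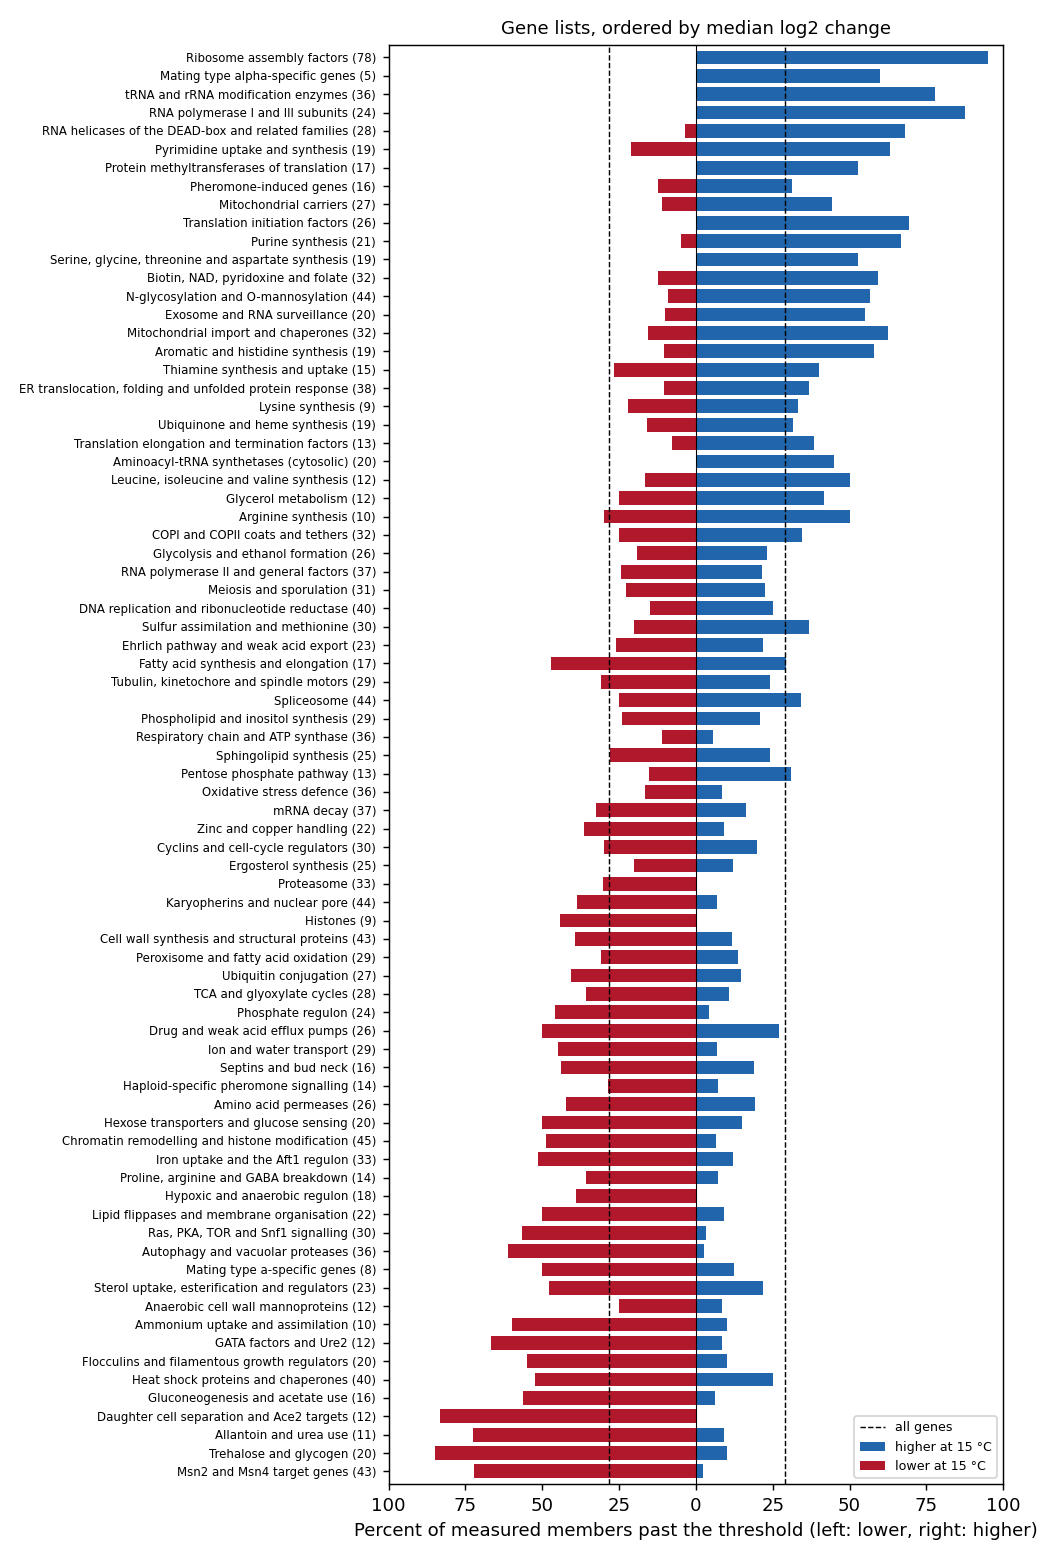
Percent of the measured genes of each list called higher (right) or lower (left) at 15 °C, with dashed lines at the shares over all 5449 genes, 29.1% higher and 28.3% lower. Ribosome assembly factors reach furthest to the right, at 94.9%, and trehalose and glycogen furthest to the left, at 85.0%.

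The machinery that builds ribosomes rose almost as a whole. Of 78 ribosome assembly factors 74 were higher and 0 lower, with a median log2 change of 0.96, among them NOC4 (3.06-fold) and IMP3 (2.85-fold) of the small subunit processome and BRX1 (2.28-fold) of the large subunit. Of 36 enzymes that modify tRNA and rRNA 28 were higher and 0 lower, with a median of 0.72. DUS3, a dihydrouridine synthase of tRNA, read 399.7, 430.0 and 335 against 98.8, 77.3 and 100.2 and rose 4.22-fold. PUS7, a pseudouridine synthase, read 879, 805 and 668 against 243, 237 and 184 and rose 3.54-fold. NOP1, the methyltransferase of box C/D particles, rose 3.06-fold and TRM5, a tRNA methyltransferase, 2.59-fold.

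Modification of the proteins of translation followed the same direction. Of 17 protein methyltransferases acting on ribosomal proteins, elongation factors and RNA-binding proteins 9 were higher and 0 lower. Besides EFM6, the arginine methyltransferases HMT1 and RMT2 rose 3.59-fold and 2.95-fold and EFM4, another enzyme of eEF1A, 2.85-fold. RNA polymerases I and III, which transcribe rRNA and tRNA, had 21 of 24 subunits higher, led by RPA49 at 2.59-fold. RNA helicases had 19 of 28 higher and 1 lower, with DBP2 at 3.30-fold and HAS1 at 3.17-fold.

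The factors that use ribosomes moved less. Of 26 initiation factors 18 were higher and 0 lower, with a median log2 change of 0.32, among them TIF35 (1.67-fold) and PRT1 (1.66-fold) of eIF3. Of 13 elongation and termination factors 5 were higher and 1 lower. The cytosolic aminoacyl-tRNA synthetases had 9 of 20 higher and 0 lower. KRS1, which charges lysine tRNA, stood out among them, at 196, 211 and 136 against 73.8, 68.7 and 59, a 2.66-fold rise. The other named synthetases, DPS1, THS1, WRS1 and the proline enzyme YHR020W, rose between 1.20-fold and 1.39-fold. Of 20 exosome subunits and cofactors of RNA decay 11 were higher and 2 lower.

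Nucleotide synthesis had mostly higher genes. In purine synthesis 14 of 21 genes were higher and 1 lower. IMD4, an IMP dehydrogenase, read 1217, 1184 and 1210.0 against 317, 303 and 339 and rose 3.77-fold, and IMD3, a further copy, rose 1.64-fold. ADE4, the first enzyme of the pathway, rose 1.78-fold, and ADE16 fell 1.50-fold. For pyrimidines 12 of 19 were higher and 4 lower: FUR1, which salvages uracil, read 1034, 1124 and 999 against 395, 348 and 358 and rose 2.87-fold. The purine-cytosine permease FCY2 fell 1.63-fold, as did the uridine permease FUI1 given above, and PPR1, the activator of the pathway's genes, 1.54-fold.

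Amino acid synthesis had more higher than lower genes in some of its branches. In the serine, glycine, threonine and aspartate branch 10 of 19 were higher and 0 lower, with SHM2, a serine hydroxymethyltransferase, at 1.67-fold. In the aromatic and histidine branch 11 of 19 were higher and 2 lower, with ARO4 at 2.13-fold and ARO3 at 2.02-fold, both of the first step. LEU9, a paralogue of the main isopropylmalate synthase, read 584, 685 and 483 against 143, 153 and 141 and rose 3.97-fold, while LEU4 rose 1.25-fold. The majority of the arginine list (5 higher and 3 lower of 10) and of the sulfur and methionine list (11 and 6 of 30) turned without the centring of the arrays. MUP1, the methionine permease, fell 5.32-fold and MHT1, a homocysteine methyltransferase, rose 2.59-fold.

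Genes of vitamin synthesis had more rises than falls, at 19 and 4 of 32 for biotin, NAD, pyridoxine and folate. SNZ1, of pyridoxine synthesis, read 1230.0, 1323 and 853 against 420.3, 401 and 388 and rose 2.77-fold. FOL3, of folate synthesis, rose 1.89-fold and BIO2, the biotin synthase, 1.80-fold. PNC1, a nicotinamidase that stress induces, fell 1.72-fold. In the thiamine list 6 of 15 were higher and 4 lower, with the transporter-like THI72 falling 2.68-fold.

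Genes of the secretory pathway and of mitochondrial import were more often higher than lower. Of 44 genes of N-glycosylation and O-mannosylation 25 were higher and 4 lower, with ALG13 at 2.06-fold and ALG5 at 1.70-fold, both acting on the lipid-linked sugar. Of 38 genes of translocation, folding and the unfolded protein response 14 were higher and 4 lower, a share of higher genes (36.8%) not far from that over all genes. SEC63, of the translocon, rose 1.93-fold, while both the sensor IRE1 and its target HAC1 fell, 1.73-fold and 1.69-fold. Of 32 genes of mitochondrial import and chaperones 20 were higher and 5 lower: PAM18 of the import motor rose 1.87-fold, and the chaperonins HSP60 and HSP10 each fell 1.60-fold. Mitochondrial carriers had 12 of 27 higher and 3 lower, led by FLX1 at 2.24-fold. The majority of the COPI and COPII list, 11 higher and 8 lower of 32, turned without centring.

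Transcripts for reserve carbohydrate metabolism and for the general stress programme fell together with the genes already named. Of 43 Msn2 and Msn4 targets 31 were lower and 1 higher, with a median log2 change of -1.15, and of 20 trehalose and glycogen genes 17 were lower and 2 higher, with a median of -0.98. TSL1, a subunit of trehalose synthase, read 335, 335 and 458 against 1410.0, 1523 and 1489 and fell 3.97-fold, and DCS2, a stress-induced decapping regulator, fell 3.71-fold. The trehalases moved the same way as the synthase, NTH2 falling 3.40-fold and ATH1 2.74-fold. Of 40 heat shock proteins and chaperones 21 were lower and 10 higher. APJ1 fell 2.65-fold, the mitochondrial disaggregase HSP78 2.52-fold and AHA1, a cofactor of Hsp90, 2.25-fold, while TCP1 and CCT3 of the cytosolic chaperonin rose 1.31-fold and 1.28-fold and SSZ1 of the ribosome-associated complex 1.38-fold.

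Glucose uptake and its sensing had more lower than higher genes. Of 20 hexose transporters and sensors 10 were lower and 3 higher. MTH1, a repressor of the transporter genes, read 343, 365 and 540.0 against 1048, 1197 and 1115 and fell 2.74-fold. SNF3, the high-affinity glucose sensor, fell 2.50-fold and MIG1, the glucose repressor, 2.32-fold. HXT7, a high-affinity transporter whose probe set is shared, fell 5.51-fold, and GAL2 rose 2.12-fold. HXT9 and HXT10 also rose, 2.18-fold and 1.94-fold.

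Central carbon metabolism showed single strong changes in lists that otherwise were divided. Glycolysis and ethanol formation had 6 of 26 genes higher and 5 lower, and the pentose phosphate pathway 4 of 13 higher and 2 lower, and both majorities turned without centring. RKI1, the ribose-5-phosphate isomerase, read 697, 756 and 675 against 187, 165 and 159 and rose 4.17-fold. ADH5, an alcohol dehydrogenase, read 1972, 1959 and 1605 against 910.0, 701 and 661 and rose 2.45-fold. GPP1, the phosphatase that releases glycerol, the electron sink of anaerobic cells, read 3583, 3615 and 3544 against 1977, 2109 and 2099 and rose 1.74-fold. PFK26, which makes the activator of phosphofructokinase, fell 2.01-fold.

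Genes of gluconeogenesis and acetate use had 9 of 16 lower and 1 higher. ALD2, an aldehyde dehydrogenase, read 246, 246 and 268 against 1207, 1006 and 876 and fell 4.03-fold, ADY2, an acetate transporter, fell 3.32-fold, and CAT8, the activator of these genes, 2.58-fold. In the TCA and glyoxylate list 10 of 28 were lower and 3 higher; the lower genes numbered 6 without replicate 1 or 2 at 15 °C or replicate 2 at 30 °C, and 16 without replicate 3 at 15 °C. MAE1, the malic enzyme, rose 2.12-fold. Of 36 genes of the respiratory chain and ATP synthase 2 were higher and 4 lower, and the majority turned with 1 array: without replicate 1 at 15 °C 5 were higher and 2 lower, and without replicate 3 there 1 was higher and 10 lower. Without replicate 2 of either temperature 1 was higher and 2 were lower. NDE2, an external NADH dehydrogenase, fell 3.08-fold.

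Although both cultures were limited for nitrogen, the genes for scavenging poor nitrogen sources were lower at 15 °C. Of 11 genes of allantoin and urea use 8 were lower and 1 higher, and of 12 GATA factors and their regulators 8 were lower and 1 higher. DAL4, the allantoin permease, fell 3.65-fold, DAL80, a repressor of the set and itself nitrogen-responsive, 3.23-fold, and the activator GAT1 1.96-fold. Among 26 amino acid permeases 11 were lower and 5 higher. AGP1, a broad permease, fell 3.80-fold and PTR3, of the sensor for external amino acids, 2.09-fold, while BAP3 for branched-chain amino acids rose 2.52-fold and TAT2 for tryptophan 2.31-fold.

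The ammonium list had 6 of 10 genes lower and 1 higher, and its transporters did not move together. MEP1 read 906, 898 and 711 against 1649, 1626 and 1524 and fell 1.92-fold, MEP2 fell 1.37-fold, and MEP3 read 844, 840.2 and 623 against 432, 423 and 583 and rose 1.61-fold. NPR1, the kinase that stabilises permeases, fell 1.64-fold. In the breakdown of proline, arginine and GABA 5 of 14 were lower and 1 higher, with CAR2, of arginine breakdown, at 1.93-fold lower. ARO10, the decarboxylase of the fusel alcohol route, fell 3.17-fold, although the list of that route together with weak acid export, 5 higher and 6 lower of 23, had no majority that held under other scalings.

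The lipid lists had more lower than higher genes, though for phospholipids and sphingolipids this turned with the scaling. For ergosterol, phospholipids and sphingolipids the shares of lower genes, 20.0%, 24.1% and 28.0%, were not above the 28.3% over all genes. Ergosterol synthesis had 3 of 25 genes higher and 5 lower. Without replicate 2 at 15 °C or replicate 2 or 3 at 30 °C 3 were lower, and without replicate 1 or 2 at 15 °C or replicate 1 at 30 °C 1 was higher. Of 23 genes of sterol uptake, esterification and their regulators 11 were lower and 5 higher, the oxysterol-binding OSH2 and SWH1 falling 1.60-fold and 1.58-fold. Of 17 genes of fatty acid synthesis 5 were higher and 8 lower: the elongases ELO1 and ELO2 rose 2.23-fold and 1.70-fold, while MGA2 and SPT23, the membrane-bound activators of desaturation, fell 2.41-fold and 1.76-fold. The phospholipid list had 6 higher and 7 lower of 29 and the sphingolipid list 6 and 7 of 25. CHO1, the phosphatidylserine synthase, and PSD1, the decarboxylase that follows it, rose 1.88-fold and 1.89-fold. Of 22 flippases and membrane organisers 11 were lower and 2 higher, with DNF3 falling 1.94-fold.

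At the cell surface the genes that part daughter from mother fell. Of 12 daughter separation genes 10 were lower and 0 higher, with a median log2 change of -0.79. DSE1 read 153, 150.3 and 156 against 670.5, 670.5 and 677, a 4.40-fold fall with hardly any spread within either temperature. CTS1, the chitinase that cuts the septum, read 1692, 1588 and 1830.0 against 4120.0, 3999 and 3510.0 and fell 2.27-fold, and DSE3 and EGT2 fell 1.88-fold and 1.86-fold. Of 20 flocculins and regulators of filamentous growth 11 were lower and 2 higher, with the repressor NRG2 at 2.60-fold and the mucin MSB2 at 1.91-fold lower. In the wall list 17 of 43 were lower and 5 higher, with NCA3 falling 4.68-fold and GSC2, an alternative glucan synthase, 4.30-fold.

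Cell-cycle genes were divided. CLB2, the main mitotic cyclin, read 313, 325 and 311 against 137, 140.5 and 99.9 and rose 2.55-fold, and the S-phase cyclin CLB6 rose 1.67-fold. Over 30 cyclins and regulators 6 were higher and 9 lower, over 16 septins and bud neck genes 3 and 7, and over 9 histone genes 0 and 4. In a population that is not synchronised, a change in the share of cells in a phase and a change in transcript per cell cannot be told apart. Of the spindle genes the kinase IPL1 rose 1.75-fold and the motor CIN8 fell 1.70-fold.

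The lists of metal and phosphate handling had more lower than higher genes. Of 33 iron genes 17 were lower and 4 higher. FET3, the ferroxidase of high-affinity uptake, read 10.6, 12.7 and 12.8 against 81.4, 94.6 and 115, a fall of at least 8.02-fold, and its partner permease FTR1 read 125, 157 and 148 against 589.5, 732 and 677 and fell 4.65-fold. TIS11, which destabilises transcripts of iron-using proteins, fell 4.89-fold and the activator AFT1 2.67-fold. Of 24 phosphate genes 11 were lower and 1 higher. PHO84, the high-affinity transporter, read 41.1, 46.3 and 31.8 against 144, 170.3 and 280.3 and fell 4.84-fold, and the sodium-coupled PHO89 read 95.3, 124 and 99.9 against 340.5, 397 and 798 and fell 4.50-fold, with replicate 3 the highest warm array in both.

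The zinc and copper list had 8 of 22 lower and 2 higher, with the metallothionein CRS5 at 277, 245 and 320.2 against 954, 953 and 1100.0, a 3.59-fold fall, and its activator CUP2 2.89-fold lower. The metallothionein CUP1-1, on a shared probe set, fell 2.02-fold. Of 29 ion transport genes 13 were lower and 2 higher. A probe set listed under ENA5 but shared among the near-identical sodium pumps fell 7.41-fold, while a second ENA5 probe set was at the floor, so the fall cannot be given to ENA5 itself. The potassium antiporter KHA1 fell 2.93-fold, while VCX1, the vacuolar calcium exchanger, rose 2.14-fold. Among 26 efflux pumps 13 were lower and 7 higher. PDR5, the broad drug pump, read 716, 532 and 457 against 1594, 1468 and 1595 and fell 2.78-fold, opposite to PDR12, and QDR2 rose 2.60-fold.

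Regulatory and breakdown systems were lower more often than higher. Of 36 autophagy and vacuolar protease genes 22 were lower and 1 higher. ATG39, the receptor for autophagy of the nuclear envelope, read 34.9, 56.4 and 100.1 against 297, 412 and 399 and fell 6.28-fold, and ATG8, the conjugated marker of autophagosomes, fell 1.62-fold. Of 30 genes of Ras, PKA, TOR and Snf1 signalling 17 were lower and 1 higher, with the Ras inhibitor IRA1 at 2.00-fold and adenylate cyclase, CYR1, at 1.90-fold lower. Of 27 ubiquitin conjugation genes 11 were lower and 4 higher, with polyubiquitin UBI4 at 2.22-fold lower. RPN4, the activator of proteasome genes, fell 2.94-fold, while the proteasome list had 0 of 33 higher and 10 lower, 0 and 19 without centring, and 5 and 6 after quantile normalization. The proteasome list's share of lower genes, 30.3%, was near the 28.3% over all genes.

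Chromatin genes had 22 of 45 lower and 3 higher, and 14 lower without replicate 2 at 15 °C. Karyopherins and nuclear pore proteins had 17 of 44 lower and 3 higher, with NUP159 falling 1.61-fold and KAP123, an importer of ribosomal proteins, rising 1.55-fold. The spliceosome (15 higher and 11 lower of 44) and DNA replication (10 and 6 of 40) lists had majorities that turned without centring. The RNA polymerase II list was also among those whose majority depended on the scaling. Other list counts given here also moved by more than 1.5 times with 1 array left out; those that reached 4 in either fit follow. Without replicate 2 at 15 °C, 6 genes of DNA replication, 3 permeases, 3 wall genes and 2 iron genes were higher and 3 glycolytic genes were lower. Without replicate 1 at 15 °C, 6 zinc and copper genes were higher and 3 sphingolipid genes lower, and without replicate 3 there, 3 sphingolipid, 2 ubiquitin and 5 chromatin genes were higher and 4 sphingolipid and 5 coat genes lower. Of the arrays at 30 °C, leaving out replicate 1 left 3 arginine, 2 iron, 2 ubiquitin and 4 ion transport genes higher and 3 sphingolipid and 2 thiamine genes lower, replicate 2 left 3 permeases and 3 wall genes higher, and replicate 3 left 3 sterol genes higher.

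Pairs of paralogues were compared because related enzymes could be called in opposite directions. Of 85 measured pairs 26 were called in the same direction, 14 in opposite directions, 30 in 1 member only and 15 in neither. With 29.1% of all genes higher and 28.3% lower, unrelated genes would also often be called in opposite directions. A share for unrelated pairs was not computed, so the 14 pairs are not read as a trait of paralogues. Of the 14 opposite pairs 7 were opposite without centring, 13 after quantile normalization and 8 to 11 when an array was left out, and 5 were opposite under all of these. PGM2, the major phosphoglucomutase, read 449, 442 and 730.1 at 15 °C and 1056, 960.1 and 879.6 at 30 °C and was lower, and PGM1 read 511, 567 and 471 against 356, 389 and 329.9 and was higher. URA8, a CTP synthase, read 874, 944 and 1080.0 against 1342, 1230.0 and 1224 and was lower, and URA7 read 1032, 1120.0 and 1027 against 412, 444 and 438 and was higher. In each gene the temperatures did not overlap.

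The other 3 such pairs were the wall transglycosylases CRH1 and UTR2, the ammonium transporters MEP1 and MEP3 given above, and the aspartyl proteases YPS1 and MKC7. UTR2 read 1458, 1405 and 1406 against 763, 763 and 764 and rose 1.86-fold, and CRH1 read 1098, 1105 and 821 against 1440.0, 1468 and 1389 and fell 1.43-fold. MKC7 read 271, 296 and 243 against 168, 166 and 127 and rose 1.76-fold, and YPS1 fell 1.80-fold. Each comparison here is of a gene with itself, and a difference between the members' changes was not tested.

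**Figure D4:**
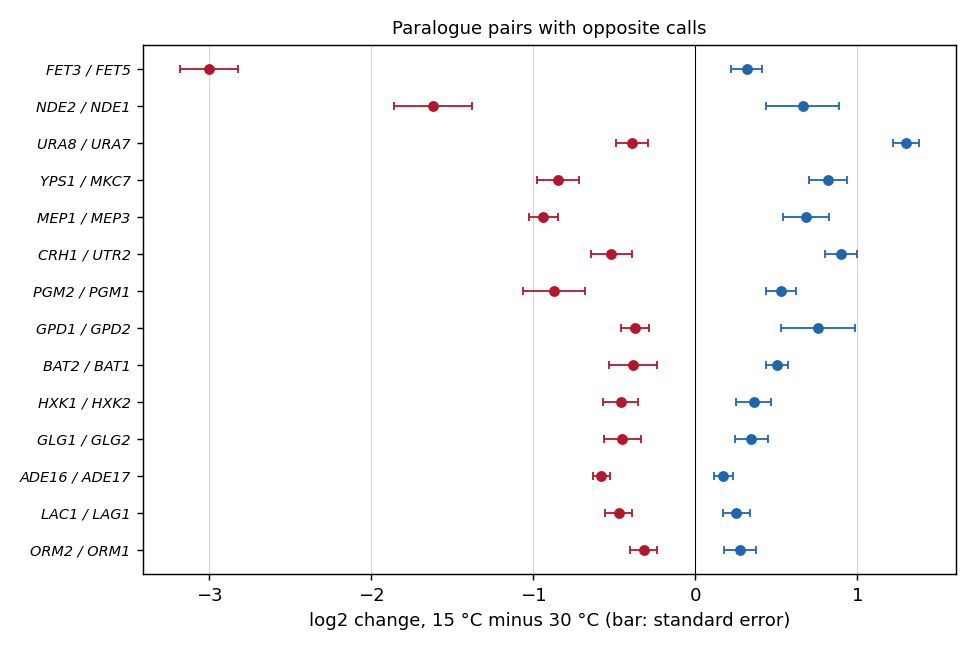
Log2 change at 15 °C against 30 °C (± SE, n = 3 arrays per temperature) of both members of the 14 paralogue pairs called in opposite directions. PGM1, URA7, UTR2, MEP3 and MKC7 lie above 0 and their partners below.

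Position along the genome was also read, with the gene order of the reference strain. The median log2 change of the 16 chromosomes lay between -0.06 and 0.05. Among the 10 outermost genes of each chromosome end, 235 of which were measured, 69 (29.4%) were higher and 57 (24.3%) lower, with a median of 0.12. Of the 15 genes with the largest rise 4 were among them, COS12 and YGL262W at the left end of VII, YCR101C on III and IMD2 on VIII, and 0 of the 15 with the largest fall. This grouping was noticed after the values were seen.

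The strain difference was tested for the 30 genes with the largest change in CEN.PK113-7D, as the difference of the log2 changes in EC1118 and in CEN.PK113-7D in the fit over all 12 arrays. Over all 5900 probe sets 738 (12.5%) differed between the strains in this way. Of the 30 genes 21 differed, 12 of those that rose and 9 of those that fell, and in all 21 the change was smaller in size in EC1118. Since the genes were chosen for large changes in CEN.PK113-7D, a smaller change in the other strain is favoured by the choice. In HOP1, MF(ALPHA)1, FIG1 and HXT2 the change in EC1118 had the opposite sign. For HOP1 and FIG1 that sign rests on values near the floor. In EC1118 HOP1 read 10.59 at 15 °C and 13.11 at 30 °C, and FIG1 10.6 and 13.27. EFM6, PDR12, ARE2, HXT5, RSB1, HSP30, SPG4, DUR3 and HSP26 missed the threshold of that test, which does not show that they changed alike.

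**Figure D5:**
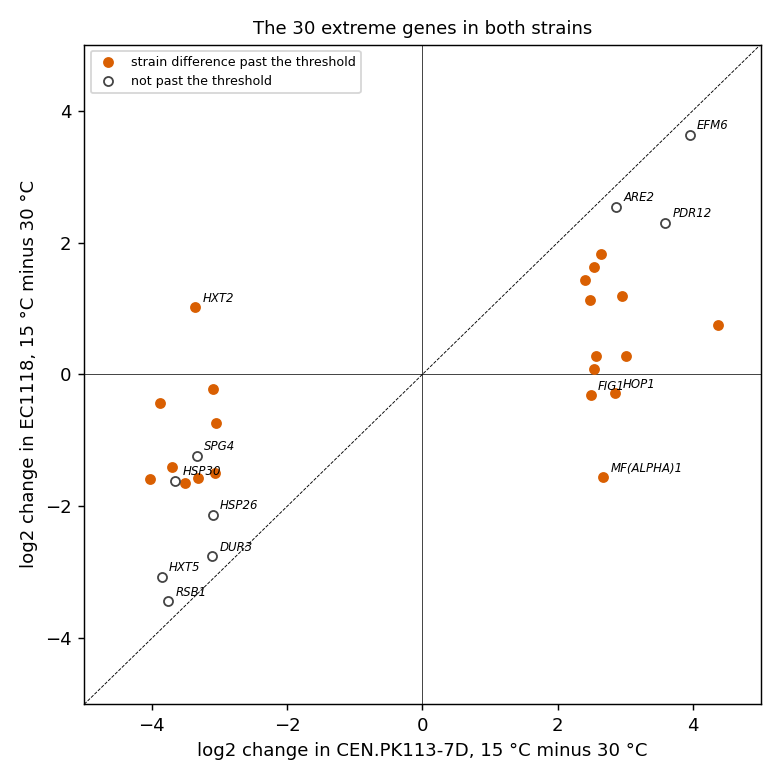
Log2 change at 15 °C against 30 °C in CEN.PK113-7D (x axis) and in EC1118 (y axis) (n = 3 arrays per group) for the 30 genes with the largest change in CEN.PK113-7D, with a dashed line where both strains are equal. Filled and open symbols mark genes past and not past the threshold of the strain-difference test. HXT2, HOP1, MF(ALPHA)1 and FIG1 lie on opposite sides of 0, HOP1 and FIG1 with EC1118 values near the floor.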

How the data were processed

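Per the labels, biotin-labelled RNA was hybridised to Affymetrix Yeast Genome 2.0 arrays. The deposited table holds 1 intensity per probe set and array on a linear scale, with a lowest value of 10; how the authors summarised and normalized it is not given in the sources used here. Each array's log2 intensities were centred on their median. A model with 1 mean per group was fitted to 12 arrays with limma 3.58.1 in R 4.3.3 and tested after Benjamini-Hochberg adjustment over 5900 probe sets at 0.05; the fit had 8 residual degrees of freedom. Scanner files and batches were not used here. The design describes the replicates as separate cultures, so p-values measure the spread between them; 3 arrays per group limit the precision. Names came from the platform annotation: 5498 probe sets had 1 gene, 402 were left unnamed, and a gene with several was read from the one with the highest mean. The scripts were tested on simulated data.

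Genes were named by rule: the 15 largest changes in each direction without overlap, genes at the floor at 1 temperature only, the called members of each list with the smallest adjusted p and those against its majority, opposite paralogues, and markers of mating type, oxygen and nitrogen. AGA1, FUS1, PRM1, PRM6, HMLALPHA1, SIR1, SIR2, SIR4 and the Ty3 probe sets were named after their values were seen. The members, lists and pairs were chosen with earlier results of these data known. The alternatives were the deposited scale, quantile normalization, the 6 arrays alone, a replicate block, a filter on dim probe sets, a pseudocount, other variance priors, 1 probe set per gene and each array left out.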

Additional observations from a re-analysis of the deposited data

Results flagged for a closer look

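The change with temperature differed between the strains for 21 of the 30 genes with the largest change in CEN.PK113-7D, by limma's test of the difference of the log2 changes (EC1118 minus CEN.PK113-7D) adjusted over all probe sets. Across all probe sets 738 of 5900 (12.5%) differed in this way. The 30 genes were chosen for large changes in CEN.PK113-7D, which favours a smaller change in EC1118 and so these signs. For 12 genes that rose, the difference was negative. It was -4.23 for MF(ALPHA)1, -3.63 for MF(ALPHA)2 and -2.80 for FIG1 among the mating genes, and -3.13 for HOP1, -2.45 for SPO11, -2.29 for SPR2 and -0.92 for HFM1 among those of meiosis and sporulation. It was -2.73 for COS12, -1.75 for YGL262W, -0.80 for YCR101C, -1.36 for IMD2 and -0.99 for NSR1.

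For 9 genes that fell, the difference was positive. It was 4.38 for HXT2, 3.44 for DIP5, 2.43 for FUI1 and 2.31 for PTR2 among the transporters. It was 2.87 for YNL277W-A, 2.29 for PUT1, 1.86 for ISF1, 1.75 for TMA10 and 1.57 for SPI1. SPO11 was at the floor on all 6 arrays of EC1118, so the difference for it rests on CEN.PK113-7D alone. HOP1, FIG1, SPR2 and YCR101C had some EC1118 arrays at the floor, which limits the precision of their EC1118 changes.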

How the results depend on the processing

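The count of probe sets past the threshold, 3315, and its split kept within 1.5 times under all alternatives tried. The 2-fold counts did not: leaving out the dimmest 25% of probe sets gave 135 higher and 164 lower and 11 strain differences. A large part of the 2-fold changes was thus in dim probe sets, and genes dropped by that filter could not be counted. A pseudocount of 50 gave 110 and 164, since it shrinks the folds of dim probe sets. With each array left out in turn, 2866 to 3287 probe sets passed, 1490 to 1662 higher and 1376 to 1625 lower, 228 to 292 were at least 2-fold higher and 228 to 304 at least 2-fold lower, and 18 to 20 strain differences passed. The deviations of same-numbered arrays from their group means correlated at r = 0.417, -0.385 and 0.016, and those of other numbers at -0.442 to 0.423. With 3 arrays per group these values cannot decide whether the numbers pair the cultures. The replicate block gave 2807 probe sets (1401 higher, 1406 lower; 244 and 261 at least 2-fold) against 3010 in the same 6 arrays without it. No named gene's call reversed under any alternative. Of 536 named genes, 32 lost their call on the deposited scale, 10 with quantile normalization, 24 in the 6 arrays alone, 41 with the block, and 16 to 42 when an array was left out. Signal near the floor limits the precision of the dim genes: 69 probe sets were at it on all 6 arrays, and 84 called ones on at least 1.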

Other observations

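Some retrotransposon and pheromone-response transcripts outside the rule for named genes also set replicate 3 at 15 °C apart; they were chosen after their values were seen. The Ty3 probe set YIL082W-A read 375, 554 and 2489 at 15 °C and 521, 452 and 436 at 30 °C, and PRM6, a potassium transporter gene that pheromone induces, read 35.9, 67.6 and 347 against 48.2, 43.6 and 62. PRM1, of membrane fusion in mating, read 194, 283 and 732 against 372, 352 and 277. In each of them the cold replicates 1 and 2 lay in or near the range of the warm arrays and replicate 3 above it. Among the probe sets with no single gene name, 162 were called, 96 higher and 66 lower.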
